A study of Danio rerio with 12 samples.

Results

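The redox genes of the zebrafish are the genes whose products make, remove or buffer reactive oxygen species, or regulate the genes that do so. They were taken here as the rows of the deposited table whose lower-case symbol names a superoxide dismutase (*sod1*, *sod2*, *sod3*), catalase (*cat*), a glutathione peroxidase (*gpx*), a peroxiredoxin (*prdx*), a thioredoxin or thioredoxin-like protein (*txn*), a glutathione S-transferase (*gst*), an enzyme of glutathione synthesis or reduction (*gclc*, *gclm*, *gsr*), *nqo1*, the regulators *nfe2l2* and *keap1*, or an NADPH oxidase (*nox*, *duox*). The rule found 59 genes among the 32105 rows. No measured value entered the rule. A further 6 rows match only when capitals are ignored and were not counted as members: 3 rows named *GSTK1*, and *NOX5*, *DUOXA2* and *TXNRD2*.

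The genes were read in injured ventricles of adult zebrafish at 7 days post amputation (dpa) of the ventricular apex. WT siblings were compared with *grl5nt-/-* mutants, which carry a germline deletion of 5 nucleotides, made with CRISPR, in the first exon of *grl*, a transcription factor gene of the Hey family that the table lists as *hey2*. All fish were of the AB strain, 5 months old and amputated, each group had 3 libraries, and each library pooled 6 ventricles. The mutation is present in every cell of the fish, so the comparison is not restricted to the heart muscle, and pooling hides the spread between single fish. Of the 12 samples of the series, the 6 of the mutant experiment were used, and the samples that overexpress *grl* are not analysed here.

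The total count was between 12520034 and 15006574 per library. Counts are given as CPM, a gene's count relative to the total of its library, after TMM scaling (a correction of each total so that most genes agree between libraries), and a count of 3, used as the detection limit, stood for 0.155 to 0.293 CPM. The RNA of the mutated gene was not lower in the mutants. After this scaling, *hey2* had 13.3, 10.6 and 9.95 CPM in WT and 15.6, 18.8 and 18.5 CPM in mutant replicates 1 to 3. Every mutant library was thus above every WT library, while the groups overlapped on the FPKM explained below. A count per gene cannot show a deletion of this size. The cardiomyocyte markers were abundant in every library, with a summed level of 30508 to 44007 CPM over 7 genes in WT and 32330 to 49112 CPM in mutant hearts. The libraries also fell into 2 sets that cut across the genotypes. The mitochondrial gene *mt-co1* had a count of 0 in mutant replicate 1 and in WT replicates 1 and 2, and a count of 583890 to 739939 in mutant replicates 2 and 3 and in WT replicate 3. The sets of 3 libraries also differed in their TMM factors (1.14 to 1.31 without *mt-co1* reads and 0.788 to 0.851 with them). The redox genes as a set, and some of the single genes below, were therefore read against this split as well.

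Superoxide is turned into hydrogen peroxide by superoxide dismutases, and the peroxide is reduced to water by catalase, by glutathione peroxidases and by peroxiredoxins. Glutathione peroxidases draw on glutathione, which gclc and gclm make and gsr recycles, and peroxiredoxins draw on thioredoxin, which thioredoxin reductase recycles. The transcription factor Nrf2, encoded by *nfe2l2a* in zebrafish, switches on many of these genes when its inhibitor Keap1 is modified by oxidants. Heart muscle is dense in mitochondria, a main source of superoxide, and in zebrafish the NADPH oxidases of the injured heart are known as a source of hydrogen peroxide.

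The redox genes covered a wide span of expression. Levels between genes were compared as FPKM, fragments per kilobase of exon scaled to the mapped reads, which takes gene length into account. Of the 59 members, 12 had a mean over the 6 libraries of at least 100 FPKM, 30 of at least 10 FPKM and 48 of at least 1 FPKM, and 11 were below 1 FPKM. The highest was *prdx2*, a cytosolic peroxiredoxin, with 414 ± 79.5 FPKM (SD, n = 3) in WT and 654 ± 145.5 FPKM (SD, n = 3) in mutant hearts. It was followed by *gstp1*, a pi-class glutathione S-transferase, with a mean of 404 FPKM over all libraries, by *gpx1a*, the zebrafish counterpart of the main cytosolic glutathione peroxidase, with 281 FPKM, and by *txnipa*, an inhibitor of thioredoxin, with 280.2 FPKM. *prdx5*, *gpx4b*, *gstm.1*, *sod2*, *gstk1*, *prdx3*, *sod1* and *gstm.3* made up the rest of the 12, at 208, 203, 195, 161, 129, 119, 112 and 107 FPKM. *gpx1a* and *gpx1b* lay far apart, at 281 and 2.80 FPKM, as did *gstp1* and *gstp2*, at 404 and 0.0127 FPKM.

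**Figure D1:**
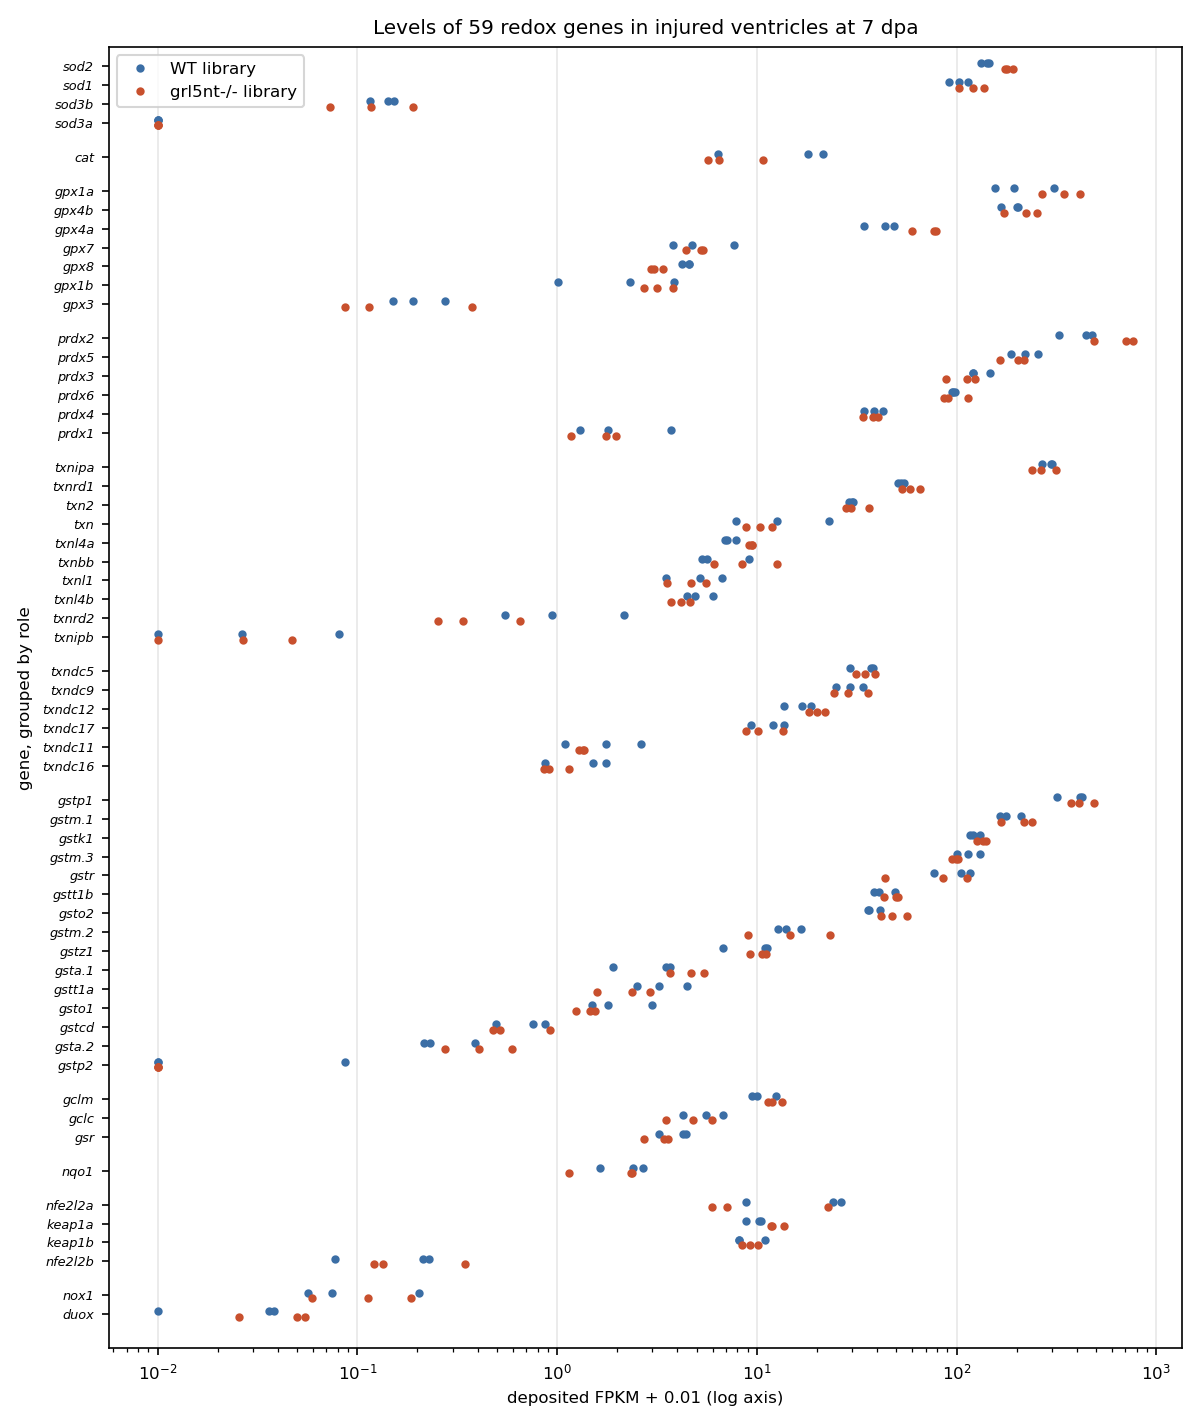
Each point is the deposited FPKM plus 0.01 of 1 library (log axis) for each of the 59 redox genes, grouped by role and ordered by mean level within a role, with WT in blue and *grl5nt-/-* in orange. The 12 genes at or above 100 FPKM lie at the right, and *sod3a*, at 0 in all 6 libraries, lies at the left edge.

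At the other end, 7 members were too low to be tested. *sod3a*, which encodes a secreted superoxide dismutase, had no count in any library, which allows up to 0.155 to 0.293 CPM, and its paralog *sod3b* had 0.207, 0.298 and 0.392 CPM in WT and 0.410, 0.346 and 0.195 CPM in mutant hearts. *nox1*, an NADPH oxidase, had 0.155, 0.119 and 0.705 CPM in WT and 0.137, 0.692 and 0.391 CPM in mutant hearts, and *duox*, an oxidase that releases hydrogen peroxide, had 0 to 0.119 CPM in WT and 0.0976 to 0.259 CPM in mutant hearts. *gstp2* had a single count, in WT replicate 3, and *txnipb* at most 0.239 CPM. *txnrd2*, a mitochondrial thioredoxin reductase, had 0.259, 0.477 and 1.57 CPM in WT and 0.137, 0.259 and 0.488 CPM in mutant hearts. Its span overlaps that of the row *TXNRD2*, which had 6.63, 4.42 and 2.19 CPM in WT and 5.54, 2.08 and 1.17 CPM in mutant hearts, so reads of the pair cannot be assigned with certainty. These 7 genes were not compared between the genotypes by a test.

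The main comparison asked whether the loss of *grl* altered the level of redox genes in the regenerating ventricle. No redox gene passed the test for all genes. By edgeR's quasi-likelihood test, two-sided and with Benjamini-Hochberg adjustment over the 15602 genes tested, 0 of the 52 tested members had an adjusted p below 0.05, beside 0.0769% of all tested genes (3 or 0.0192% higher and 9 or 0.0577% lower in the mutant), and the lowest adjusted p of a member was 0.377, of *gpx4a*. DESeq2 and limma on log2(FPKM + 0.1) called 0 members as well, with a lowest adjusted p of 0.107 and 0.330. At an unadjusted p below 0.05, 7 members were higher in mutant hearts (13.5% of those tested, beside 4.22% of all genes) and 0 were lower (beside 6.35% of all genes). These were *gpx4a*, *txndc12*, *txnl4a*, *sod2*, *gsto2*, *prdx2* and *keap1a*. The count rested on single libraries. It dropped to 1 when any one of mutant replicates 2 and 3 and WT replicates 1 and 2 was left out. The share of all genes higher at this threshold was then 2.08%, 2.09%, 2.12% and 1.88%, in that order. It reached 16 when WT replicate 3 and 13 when mutant replicate 1 was left out, beside 10.6% and 9.35% of all genes. The share of all genes thus moved in the same direction as the count of members.

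Most redox genes lay on the higher side, by a small amount. The fold change of the mutant over the WT was above 0 on the log2 scale for 41 of the 52 tested members (78.8%, beside 46.9% of all genes) and below 0 for 11 (beside 53.1%), with a median of 0.31 over the members and -0.05 over all genes. The zero of this scale depends on the normalization. With library totals in place of TMM factors the median of all genes was -0.34 and that of the members 0.01, with 28 of 52 above 0, and on log2(FPKM + 0.1) it was -0.33 and 0.01, with 27 of 52 above 0. Relative to the median of all genes, 43 members lay above it with TMM factors, 43 with library totals and 42 on log2(FPKM + 0.1). A change of scaling moved the members and the median of all genes together, so these counts could hardly differ and are no separate support. Without any scaling beyond the total, the 59 members together took 0.522%, 0.569% and 0.556% of the counts in WT replicates 1 to 3 and 0.582%, 0.653% and 0.571% in mutant replicates 1 to 3. The lowest mutant share was above the highest WT share by little.

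A shift of this kind was also seen in other well expressed genes. Among the 535 tested genes with at least 100 FPKM, 90.3% had a fold change above 0 and the median was 0.39, beside 12 of 12 members with a median of 0.44. Among the 3670 genes with at least 10 FPKM, 75.2% lay above 0 with a median of 0.26, beside 26 of 30 members with a median of 0.40. Below 10 FPKM, 38.2% of 11932 genes lay above 0 with a median of -0.16, beside 15 of 22 members with a median of 0.13. At the highest level the median of the redox genes was therefore close to that of all genes (0.44 and 0.39). It lay further above that of all genes at 10 FPKM or more (0.40 and 0.26) and below 10 FPKM (0.13 and -0.16).

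**Figure D2:**
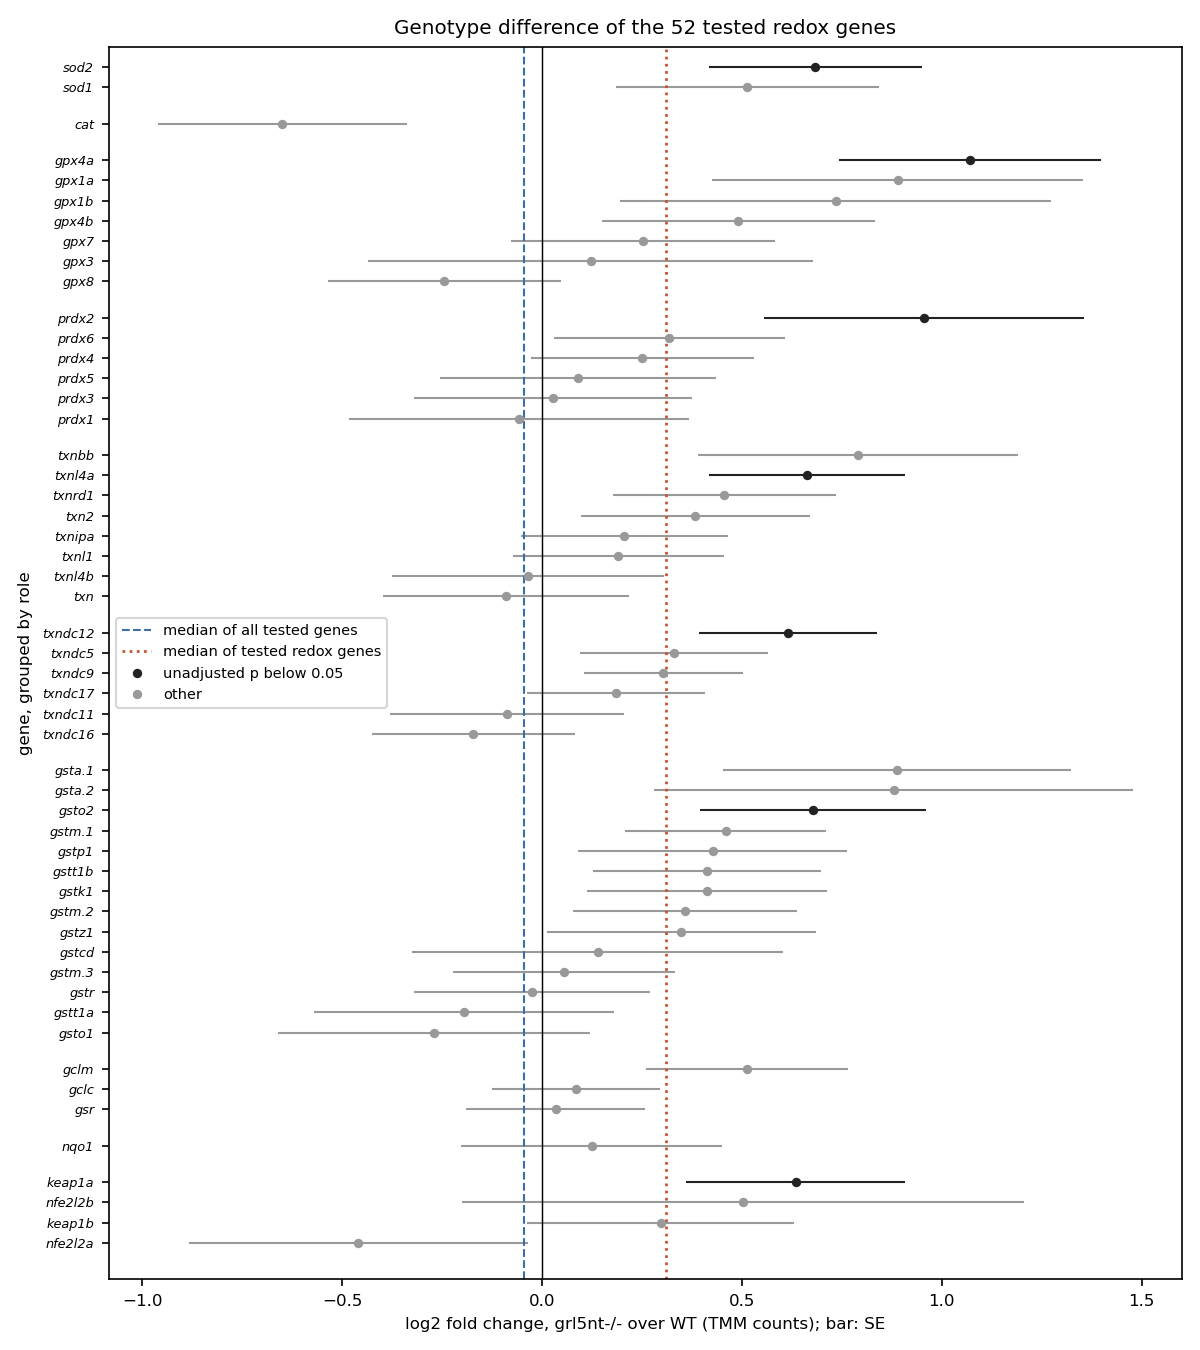
Log2 fold change of *grl5nt-/-* over WT from TMM-scaled counts with its SE (bars) for the 52 tested redox genes, grouped by role. The 7 genes with an unadjusted p below 0.05 are in black, all of them above 0, and the dashed and dotted lines mark the medians of all tested genes (-0.05) and of the tested redox genes (0.31), which fall to -0.33 and 0.01 on log2(FPKM + 0.1).

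The superoxide dismutases gave 1 of the 7. *sod2* (chromosome 20, 31035055 to 31044668, GRCz10), the mitochondrial enzyme, had 254, 263 and 348 CPM in WT replicates 1 to 3 and 362, 548 and 481 CPM in mutant replicates 1 to 3. Every mutant library was above every WT library, and the groups did not overlap on FPKM either (140 ± 7.15 and 182 ± 8.85 FPKM, SD, n = 3 each). Its log2 fold change came to 0.68 (SE 0.27, unadjusted p = 0.0315, adjusted p = 0.438, edgeR). The span of *sod2* overlaps that of *wtap*, which had a log2 fold change of 0.06. *sod1*, the cytosolic enzyme, had 101, 121 and 190.5 CPM in WT and 132, 247 and 209.8 CPM in mutant hearts, and the groups overlapped (log2 fold change 0.51, SE 0.33). Both were above 0 with TMM factors and on FPKM.

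Catalase went the other way. *cat* (chromosome 25, 7318706 to 7328383), which breaks down hydrogen peroxide in peroxisomes, had 53.8, 48.5 and 24.3 CPM in WT and 31.5, 26.5 and 22.7 CPM in mutant hearts. WT replicate 3 was as low as the mutants, so that the groups overlapped, and the log2 fold change was -0.65 (SE 0.31, unadjusted p = 0.0694, adjusted p = 0.498, edgeR). Between the libraries without *mt-co1* reads the mutant was lower by 0.69 on the log2 scale (difference -0.69), and between those with them the difference was 0.02. *cat* had the lowest fold change of the 52 tested members.

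Among the 7 glutathione peroxidases, 6 had a fold change above 0, with a median of 0.49 on TMM-scaled counts, and 4 were above 0 on log2(FPKM + 0.1), with a median of 0.175. *gpx4a* (chromosome 22, 17564630 to 17586764), a paralog of the enzyme that reduces lipid peroxides in membranes, had the highest fold change of all members. Its level was 37.2, 55.7 and 72.1 CPM in WT and 74.9, 136 and 135 CPM in mutant hearts. No mutant library was below a WT library, although mutant replicate 1 was only just above WT replicate 3. The log2 fold change was 1.07 (SE 0.33, unadjusted p = 0.0108, adjusted p = 0.377, edgeR), or 0.77 as the log2 ratio of mean FPKM. Within the split it was 0.72 between the libraries without *mt-co1* reads and 0.91 between those with them. *gpx4a* overlaps the span of *polr2eb*, an RNA polymerase subunit gene, which had a log2 fold change of 0.46. Its paralog *gpx4b* had 113, 144.9 and 211 CPM in WT and 137, 283 and 239.5 CPM in mutant hearts, with overlap (log2 fold change 0.49, SE 0.34).

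*gpx1a* (chromosome 11, 35786596 to 35894988) had 229, 303 and 683 CPM in WT and 457, 996 and 796 CPM in mutant hearts. WT replicate 3 exceeded mutant replicate 1, and the log2 fold change of 0.89 came with an SE of 0.46 (unadjusted p = 0.0896, adjusted p = 0.518, edgeR). The difference between the libraries with and without *mt-co1* reads was larger, at 1.17. The span of *gpx1a* overlaps *brk1* (log2 fold change 0.61) and *tex264b* (at most 0.932 CPM). *gpx1b* was low, with 0.673, 2.75 and 2.35 CPM in WT and 2.12, 3.46 and 4.00 CPM in mutant hearts (log2 fold change 0.73, SE 0.54). Of the others, *gpx3*, which encodes the secreted form, had at most 1.71 CPM, and *gpx7* and *gpx8*, relatives that act in the endoplasmic reticulum, had log2 fold changes of 0.25 and -0.24. On FPKM, *gpx8* was lower in every mutant library than in every WT library (4.45 ± 0.198 and 3.11 ± 0.226 FPKM, SD, n = 3 each).

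**Figure D3:**
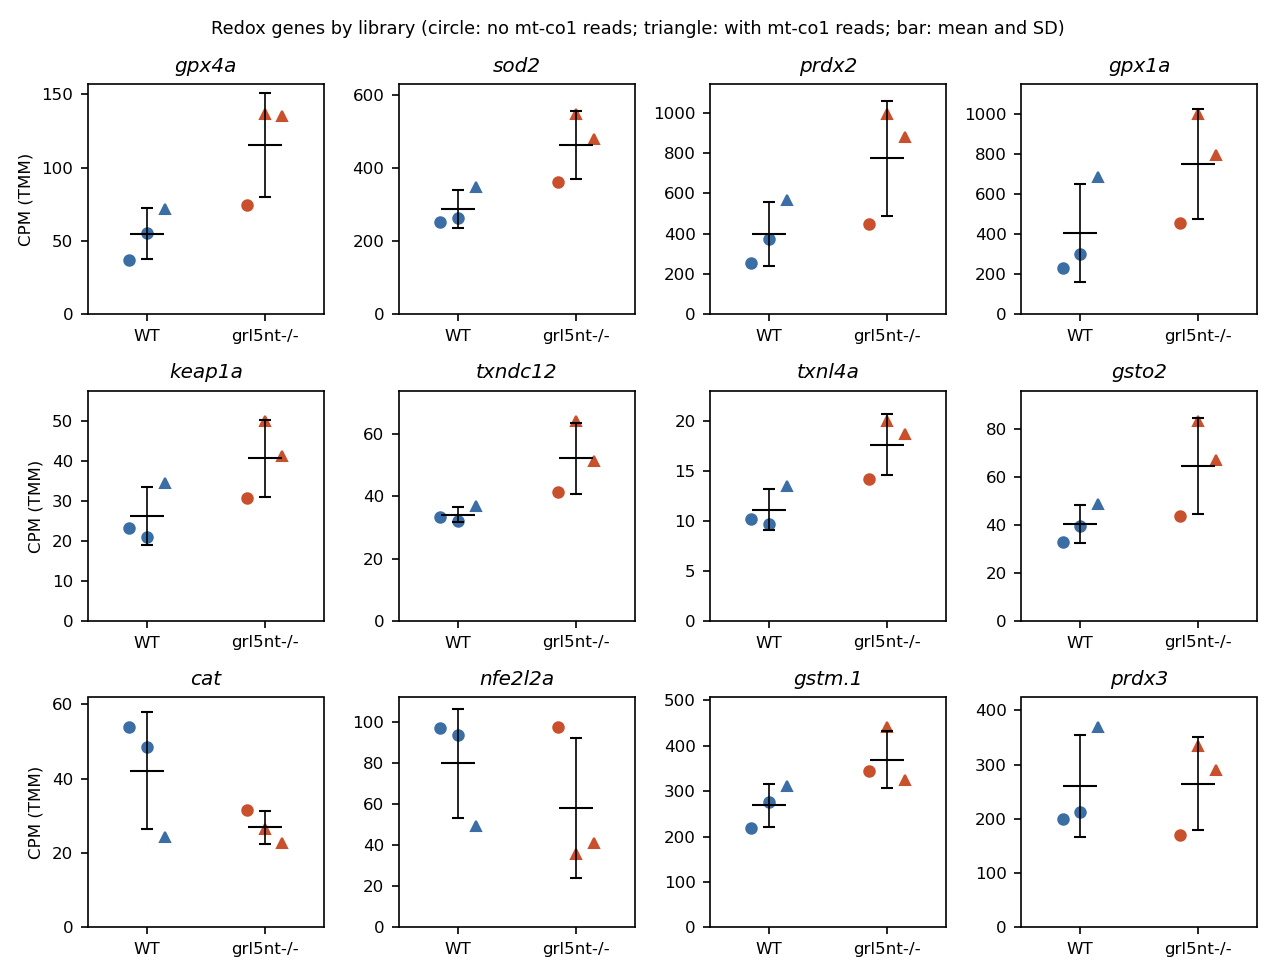
CPM after TMM scaling in each library for 12 redox genes, with the mean and SD of each group as bars, WT in blue and *grl5nt-/-* in orange. Circles are libraries without *mt-co1* reads and triangles those with them. For *prdx2*, WT replicate 3 (567 CPM) lies above mutant replicate 1 (449 CPM), and for *cat* and *nfe2l2a* the triangles lie low in both groups.

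The 6 peroxiredoxins stood apart from each other. *prdx2* (chromosome 1, 51087487 to 51095498) had 256, 374 and 567 CPM in WT and 449, 991 and 879.7 CPM in mutant hearts. The groups overlapped through WT replicate 3 on CPM and did not overlap on FPKM (324, 444 and 474 FPKM in WT and 489.6, 766 and 707 FPKM in mutant hearts). The log2 fold change was 0.95 (SE 0.40, unadjusted p = 0.0430, adjusted p = 0.464, edgeR), with 0.54 between the libraries without *mt-co1* reads and 0.72 between those with them. *prdx3*, the mitochondrial peroxiredoxin, had 199.8, 212 and 369 CPM in WT and 169.9, 335 and 291 CPM in mutant hearts. Its log2 fold change was 0.03 (SE 0.35), and within the split it was -0.28 without and -0.24 with *mt-co1* reads, so the pooled value and the values on each side had opposite signs. *prdx5*, which is found in mitochondria and peroxisomes, behaved alike, with 0.09 (SE 0.34) in the pooled fit and -0.13 and -0.21 on the 2 sides. *prdx6* (log2 fold change 0.32, SE 0.29), *prdx4* of the endoplasmic reticulum (0.25, SE 0.28) and *prdx1* (-0.06, SE 0.43, at 2.53 to 6.94 CPM) each had overlapping groups. The median of the 6 was 0.17 with TMM factors and -0.12 on log2(FPKM + 0.1), where *prdx2* alone was above 0.

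In mammals the proteins of *PRDX2* and *GPX1* are abundant in red blood cells, so erythrocyte markers were read beside *prdx2* and *gpx1a*. All 5 erythrocyte markers found (*hbaa1*, *alas2*, *cahz*, *slc4a1a* and *epb41b*) were detected in every library, and 4 of the 5 had a fold change above 0, with a median of 0.74. Their summed level was 8085, 17942 and 36045 CPM in WT and 20605, 39825 and 30009 CPM in mutant hearts, so that WT replicate 1 was lowest and mutant replicate 2 highest, as for *prdx2* and *gpx1a*. The order was not the same throughout, since the marker sum was higher in WT replicate 3 than in mutant replicate 3. *prdx2* (567 and 879.7 CPM) and *gpx1a* (683 and 796 CPM) were lower in WT replicate 3. Most of the marker sum came from *hbaa1*, with 28189 CPM in WT replicate 3 and 21271 CPM in mutant replicate 3, and *epb41b* had 37.8 and 30.4 CPM. The other markers were lower in WT replicate 3, as *prdx2* and *gpx1a* were. These were *alas2* (3392 and 4118 CPM), *cahz* (2813 and 2889 CPM) and *slc4a1a* (1613 and 1701 CPM). No erythrocyte marker had an unadjusted p below 0.05, the exact permutation test of the summed level gave p = 0.4 (two-sided, smallest possible 0.1), and the part of blood in the levels of *prdx2* and *gpx1a* was not tested. In RNA of whole ventricles, fewer cells of a type and less RNA per cell cannot be told apart.

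Of the 8 tested thioredoxins, thioredoxin reductases and related proteins, 6 had a fold change above 0, with a median of 0.29 on TMM-scaled counts and -0.01 on log2(FPKM + 0.1). *txnl4a* (chromosome 19, 21208914 to 21212587) had 10.1, 9.73 and 13.5 CPM in WT and 14.2, 20.0 and 18.6 CPM in mutant hearts, without overlap on CPM or FPKM, and a log2 fold change of 0.66 (SE 0.24, unadjusted p = 0.0257, adjusted p = 0.419, edgeR). Its symbol places it with the thioredoxins, but its human counterpart is a protein of the spliceosome and not a redox enzyme. *txnrd1*, the thioredoxin reductase of the cytosol, had 117, 129.9 and 189.8 CPM in WT and 157, 248 and 195 CPM in mutant hearts, with overlap (log2 fold change 0.46, SE 0.28). The thioredoxins themselves had 38.2, 22.4 and 19.9 CPM in WT and 20.1, 32.5 and 23.1 CPM in mutant hearts for *txn* (log2 fold change -0.09, SE 0.31), and 46.8, 47.8 and 71.3 CPM in WT and 50.8, 92.7 and 72.9 CPM in mutant hearts for the mitochondrial *txn2* (0.38, SE 0.29). *txnipa* varied little, between 632 and 862 CPM in WT and between 783 and 921 CPM in mutant hearts, with a log2 fold change of 0.21 (SE 0.26) that was -0.08 on log2(FPKM + 0.1). *txnbb* had 0.79 (SE 0.40), and its span overlaps those of *psmd3* and *btr30*.

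The thioredoxin-domain proteins gave 1 of the 7 and 2 of the genes without overlap. *txndc12* (chromosome 2, 9794314 to 9809874), a thioredoxin-like protein of the endoplasmic reticulum, had 33.4, 32.0 and 36.9 CPM in WT and 41.4, 64.2 and 51.3 CPM in mutant hearts. The WT libraries were close together and all were below the mutants, and the log2 fold change was 0.62 (SE 0.22, unadjusted p = 0.0231, adjusted p = 0.415, edgeR). On FPKM its groups overlapped (16.4 ± 2.56 in WT and 20.0 ± 1.87 in mutant hearts, SD, n = 3 each). *txndc9* had 66.2, 60.8 and 73.8 CPM in WT and 81.4, 91.3 and 75.0 CPM in mutant hearts (log2 fold change 0.30, SE 0.20), also without overlap on CPM but with overlap on FPKM. *txndc5*, a protein disulfide isomerase and the most abundant of the 6 at 35.0 FPKM, had a log2 fold change of 0.33 (SE 0.23). The median of the 6 was 0.24 on TMM-scaled counts and -0.05 on log2(FPKM + 0.1).

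The glutathione S-transferases, which join glutathione to oxidized and foreign compounds, were the most numerous role, with 14 of 15 tested and 11 above 0. The median was 0.38 on TMM-scaled counts and 0.13 on log2(FPKM + 0.1), where 9 of 14 were above 0. *gsto2* (chromosome 13, 25266446 to 25272322), of the omega class, had 32.8, 39.6 and 48.8 CPM in WT and 43.7, 83.3 and 67.0 CPM in mutant hearts. WT replicate 3 exceeded mutant replicate 1, and the log2 fold change was 0.68 (SE 0.28, unadjusted p = 0.0418, adjusted p = 0.464, edgeR). Its neighbour *gsto1*, which lies within 50 kb, was low, at 1.71 to 3.64 CPM, and had a log2 fold change of -0.27 (SE 0.39). *gstp1* (chromosome 14, 3400020 to 3406749), the most abundant, had 219.96, 312 and 435 CPM in WT and 301, 552 and 448 CPM in mutant hearts, with overlap (log2 fold change 0.43, SE 0.34).

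The mu-class genes *gstm.1*, *gstm.2* and *gstm.3* lie side by side on chromosome 8 between 25276021 and 25287875 and did not share a pattern. *gstm.1* had 218, 276 and 312 CPM in WT and 344, 440.1 and 325 CPM in mutant hearts, without overlap on CPM but with overlap on FPKM (log2 fold change 0.46, SE 0.25). *gstm.3* had 259.6, 356 and 444 CPM in WT and 302, 416 and 383 CPM in mutant hearts (0.05, SE 0.28). *gstm.2*, whose span overlaps that of *gstm.1*, had 16.8, 21.1 and 23.3 CPM in WT and 32.3, 28.9 and 17.0 CPM in mutant hearts (0.36, SE 0.28). *gsta.1* (0.89, SE 0.44) and *gsta.2* (0.88, SE 0.60) also overlap each other on chromosome 13, and both were below 13 CPM in every library. The span of *gsta.1* overlaps that of *TMEM14A* as well, which had 14.2 to 42.5 CPM and a log2 fold change of 0.83. The sources do not say how reads that fit several paralogs were counted, so the values of neighbouring copies are uncertain. *gstr* had 141 CPM in mutant replicate 3 and 229.6 to 286.5 CPM in the other 5 libraries (-0.02, SE 0.30).

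The genes of glutathione synthesis and reduction and *nqo1* are widely used as readouts of Nrf2 activity, and none of the 4 had an unadjusted p below 0.05. *gclc*, the catalytic subunit of the first step of glutathione synthesis, had 22.9, 19.9 and 21.7 CPM in WT and 23.4, 26.4 and 18.6 CPM in mutant hearts (log2 fold change 0.08, SE 0.21). *gclm*, its modifier subunit, had 20.8, 16.6 and 25.1 CPM in WT and 22.9, 36.4 and 29.9 CPM in mutant hearts (0.51, SE 0.25, unadjusted p = 0.0754 by edgeR), with overlap. *gsr*, glutathione reductase, had 18.0, 18.5 and 19.9 CPM in WT and 16.3, 24.0 and 17.5 CPM in mutant hearts (0.03, SE 0.22). *nqo1*, a quinone reductase, had 5.69, 5.37 and 5.25 CPM in WT and 5.74, 8.21 and 3.81 CPM in mutant hearts (0.12, SE 0.33). On log2(FPKM + 0.1) the values of *gclc*, *gsr* and *nqo1* were -0.22, -0.28 and -0.23, so their sign depended on the scale.

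The 4 regulators had 3 fold changes above 0 and 1 below. *keap1a* (chromosome 2, 41985607 to 42011622), which encodes an inhibitor of Nrf2, had 23.2, 20.9 and 34.4 CPM in WT and 30.8, 49.98 and 41.1 CPM in mutant hearts, with overlap on CPM and none on FPKM (9.82 ± 0.876 and 12.4 ± 1.1 FPKM, SD, n = 3 each). Its log2 fold change came to 0.63 (SE 0.27, unadjusted p = 0.0478, adjusted p = 0.470, edgeR). *keap1b*, its paralog, had 20.2, 21.4 and 41.1 CPM in WT and 24.1, 41.3 and 36.1 CPM in mutant hearts (0.30, SE 0.33). *nfe2l2a* (chromosome 9, 1652136 to 1681220) had 97.0, 93.6 and 49.3 CPM in WT and 97.4, 36.0 and 41.0 CPM in mutant hearts. These values sorted by the split, since the 3 libraries without *mt-co1* reads lay between 93.6 and 97.4 CPM and the 3 with them between 36.0 and 49.3 CPM. The log2 fold change of *nfe2l2a* was -0.46 (SE 0.42), the difference along the split -1.14, and *nfe2l2b* was near the detection limit (0.239 to 1.76 CPM).

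The redox genes also differed along the split. Libraries with *mt-co1* reads exceeded those without them by a median of 0.52 on the log2 scale over the 52 members, beside -0.03 over all genes. The difference along the split was larger than that between the genotypes for 33 of the 52, a share like that of all genes (10056 of 15602). WT replicate 3 was the highest WT library for 37 members (71.2%, beside 41.2% of all genes), and mutant replicate 1 was the lowest mutant library for 41 members (78.8%, beside 41.0%). Within the split, the mutant was higher on both sides for 28 members (53.8%, beside 31.9% of all genes) and lower on both sides for 7 (13.5%, beside 32.5%), with medians of 0.19 without and 0.17 with *mt-co1* reads. With the split as a term in the edgeR fit, the median of the members was 0.17, 0 had an adjusted p below 0.05, and 9 had an unadjusted p below 0.05, namely *gpx1a* and *gstm.1* beside the 7 named above (8.40% of all genes were higher at this threshold). One side holds 1 mutant library and the other 1 WT library, no separate test was run within a side, and the origin of the split was not tested.

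**Figure D4:**
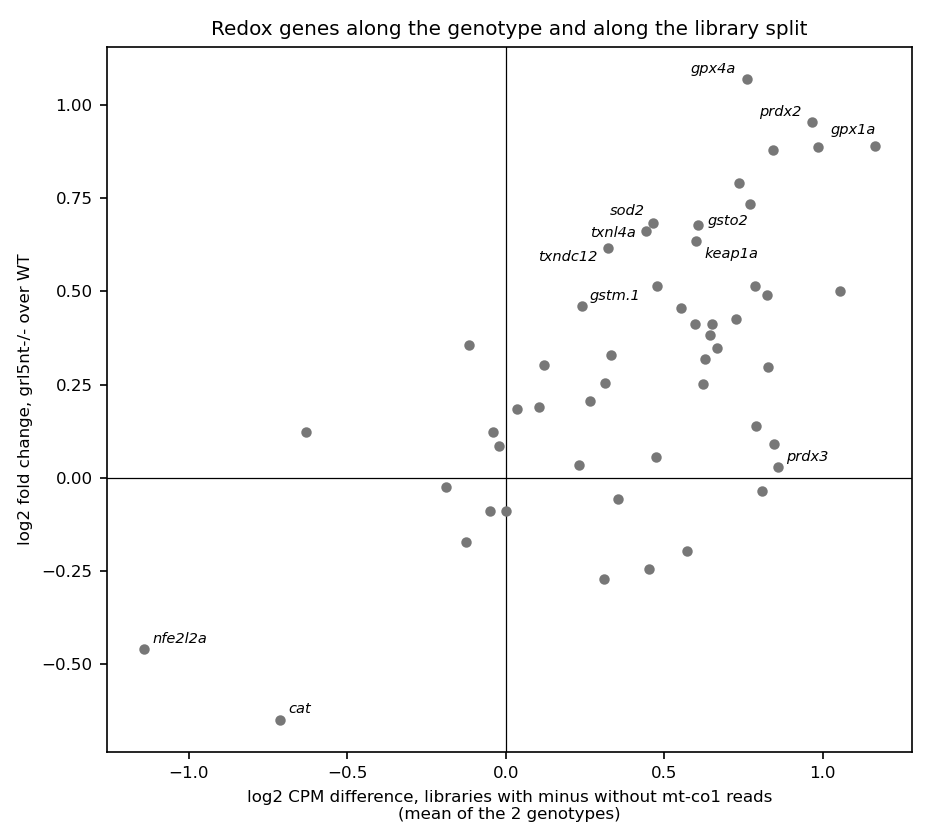
For each of the 52 tested redox genes, the log2 fold change of *grl5nt-/-* over WT (vertical) against the log2 difference between libraries with and without *mt-co1* reads, averaged over both genotypes (horizontal). Both axes use the same 6 libraries. *gpx1a* lies at 0.89 and 1.17, *cat* and *nfe2l2a* are low on both axes, and *prdx3* lies at 0.86 along the split and at 0.03 between the genotypes.

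On CPM, 6 members had groups that did not overlap, all with the mutant higher (11.5%, beside 15.6% of all genes in either direction, 6.95% higher and 8.64% lower): *sod2*, *gpx4a*, *txnl4a*, *txndc9*, *txndc12* and *gstm.1*. On FPKM, 7 were higher without overlap (13.5%, beside 4.27% of all genes), namely *sod2*, *gpx4a*, *prdx2*, *txnl4a*, *gsta.1*, *gsto2* and *keap1a*, and *gpx8* was lower (1.92%, beside 10.8%). The members free of overlap on both scales were *sod2*, *gpx4a* and *txnl4a*. The share of all genes free of overlap on both scales was not counted, so these members cannot be set against it. Within the split, without and with *mt-co1* reads, the differences were 0.49 and 0.56 for *sod2*, 0.72 and 0.91 for *gpx4a* and 0.51 and 0.52 for *txnl4a*, and the absence of overlap on CPM fixes their sign.

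**Figure D5:**
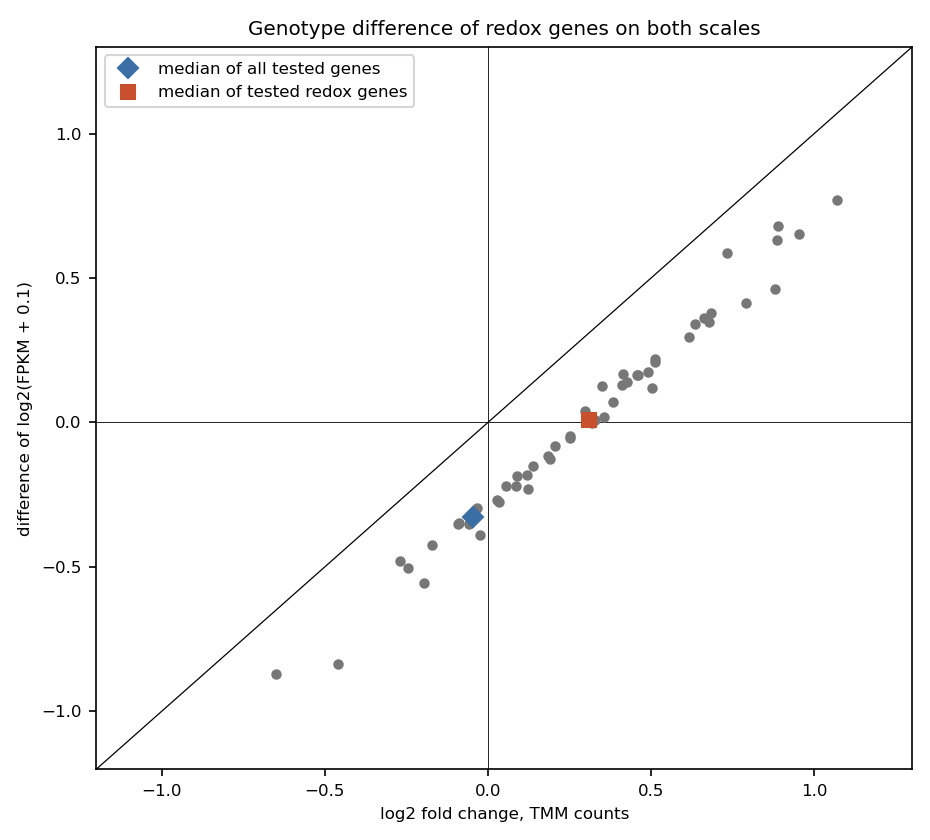
Each grey point is 1 of the 52 tested redox genes, with its log2 fold change (*grl5nt-/-* over WT) on TMM-scaled counts against its difference on log2(FPKM + 0.1), and the thin line marks equal values. The points run below the line at a near constant distance, with the medians of all genes at -0.05 and -0.33 and those of the redox genes at 0.31 and 0.01, so that 41 of 52 were above 0 on one scale and 27 on the other.

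A second list of redox genes, chosen by function and sharing no gene with the members above, did not lie to one side. It was mixed, and held among others glutaredoxins (*glrx*), phagocyte oxidase subunits, disulfide isomerases and transcription factors of the *bach* and *maf* families. Of 87 genes found, 76 were tested, with 37 above 0 (48.7%, beside 46.9% of all genes), 39 below 0 and a median of -0.02. The list was not matched to the members by level of expression. None had an adjusted p below 0.05 by edgeR (lowest 0.401), and at an unadjusted p below 0.05, 0 were higher (beside 4.22% of all genes) and 3 were lower (3.95%, beside 6.35%). DESeq2 gave 4 higher and 2 lower at that threshold, beside 5.41% and 6.2% of all genes. The counts turned on single libraries. They were 11 higher and 9 lower without WT replicate 3 (beside 10.6% and 11.7% of all genes). Without mutant replicate 1 they were 8 higher and 13 lower (beside 9.35% and 16.6%). Both were 0 without WT replicate 1 (beside 2.12% and 3.04%) or mutant replicate 2 (beside 2.08% and 3.72%). *cybb* (chromosome 11, 29547981 to 29569255), the catalytic subunit of the phagocyte NADPH oxidase, had 43.9, 29.5 and 14.3 CPM in WT and 16.1, 10.3 and 12.9 CPM in mutant hearts (log2 fold change -1.16, SE 0.39, unadjusted p = 0.0169, adjusted p = 0.401, edgeR). *cyba*, its membrane partner, had 33.2, 28.8 and 20.1 CPM in WT and 21.7, 16.9 and 16.6 CPM in mutant hearts (-0.57, SE 0.25, unadjusted p = 0.0494, adjusted p = 0.471, edgeR). For both, WT replicate 3 fell within the range of the mutants. *bach1a*, whose mammalian counterpart represses Nrf2 target genes, had 19.2, 14.2 and 5.72 CPM in WT and 9.02, 2.68 and 4.20 CPM in mutant hearts, again with overlap (-1.29, SE 0.54, unadjusted p = 0.0425, adjusted p = 0.464, edgeR). *hmox1a* and *srxn1*, 2 further genes that Nrf2 is known to control, were singled out after their values were seen and had log2 fold changes of -0.23 (SE 0.29) and -0.79 (SE 0.57).

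The phagocyte oxidase is found in white blood cells, and no marker of these cells had an adjusted p below 0.05 by edgeR. The 10 macrophage and neutrophil markers include *cybb* itself and *ncf1*, another subunit of the oxidase, and all were detected in every library. Of the 10, 8 had a fold change below 0, with a median of -0.50, and 5 of these, *cybb* among them, had an unadjusted p below 0.05 (beside 6.35% of all genes). *ncf1* had a log2 fold change of -0.04, and the neutrophil markers *mpx* and *lyz* had 0.40 and 0.385. The summed level of all 10 markers was 447, 426 and 263 CPM in WT and 271, 260.3 and 271 CPM in mutant hearts. The exact permutation test of this sum gave p = 0.3 (two-sided, smallest possible 0.1), and its part in the levels of *cybb* and *cyba* was not tested. Of the other marker lists, those of the exocrine pancreas had the highest median, 1.301 over the 3 genes tested, all 3 above 0. The summed level over the 4 genes found was 46.0, 54.8 and 138 CPM in WT and 96.6, 149 and 306 CPM in mutant hearts, with overlap (exact permutation test, two-sided, p = 0.2). *ela2*, a pancreatic elastase at 0.477 to 3.71 CPM, had a log2 fold change of 1.76 (unadjusted p = 0.00556, adjusted p = 0.319, edgeR). Cardiomyocyte markers had a median of 0.07 over 7 genes, liver markers 0.41 over 4, endothelial markers -0.06 over 6 and epicardial and fibroblast markers -0.33 over 6. Of the last 6, 4 were below 0 and 2 above. The lowest was *tbx18*, with 34.3, 38.4 and 20.6 CPM in WT and 17.4, 7.70 and 12.3 CPM in mutant hearts, without overlap. Its log2 fold change was -1.315 (SE 0.35, unadjusted p = 0.00519, adjusted p = 0.314, edgeR). The part of these cell types in the levels of the redox genes was not tested.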

How the data were processed

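RNA of injured ventricles at 7 dpa from 3 WT and 3 *grl5nt-/-* libraries was analysed. After filtering with Seqtk, the authors aligned the reads with Hisat2 (2.0.4) to the GRCz10 assembly and used Stringtie (1.3.0) for FPKM, and they deposited 1 table with the whole-number read count, without normalization, and the FPKM of 32105 genes in each library. The program that counted the reads and its strand setting are not given in the sources used here, so overlapping genes and paralogs can share reads (22 of the 59 members overlap another gene). Columns were matched to samples by the letter in each sample's label. The methods and the labels name different sequencers.

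The filterByExpr function of edgeR 4.0.16 (R 4.3.3) kept 15602 genes, whose counts were scaled by TMM and compared with a two-sided quasi-likelihood test, with the SE taken from the fold change and the F statistic. DESeq2 1.42.0 and limma 3.58.1 on log2(FPKM + 1) and log2(FPKM + 0.1) were alternatives. Values within the split by *mt-co1* reads are differences of log2 CPM (prior count 2) and carry no test. Whether the pools came from separate clutches is not given in the sources used here, so p-values measure only the spread between these libraries, 3 per group. Detection limits cover counting error only. The scripts were tested on simulated counts.

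The text names each member with an unadjusted p below 0.05, the member with the highest FPKM of each role and a list of well known members. It also names the genes of the second list with an unadjusted p below 0.05. The members and lists were chosen with earlier results of these data known. Library totals without TMM factors were added as an alternative after the data had been seen.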

Additional observations from a re-analysis of the deposited data

How the results depend on the processing

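No alternative gave a redox gene with an adjusted p below 0.05. The median fold change of the redox genes stayed above 0 under every alternative (0.00784 to 0.494), but the place of 0 depends on the normalization. The 7 genes with an unadjusted p below 0.05 kept their direction in all 15 alternatives run for each. They had been picked by that p in these same libraries, so the kept direction is no separate support. The number of redox genes higher at that threshold was 7, beside 4.22% of all genes. It became 9 with DESeq2 (beside 5.41%) and 8 of the same 52 members without a filter (beside 3.37%). It became 4 with limma on log2(FPKM + 1) and log2(FPKM + 0.1), beside 2.17% and 2.19% of all genes. On log2(FPKM + 0.1) these were *gpx4a*, *sod2*, *prdx2* and *gpx1a*, without *txndc12*, *txnl4a*, *gsto2* and *keap1a*. The number was 3 with library totals (beside 1.83%), and 1 to 16 with a library left out (beside 1.88% to 10.6%). The number lower was 0 (beside 6.35% of all genes), and 0 to 1 with a library left out (beside 3.04% to 16.6%). A trimmed list left out *txnl1*, *txnl4a*, *txnl4b*, *txndc9*, *txnipa* and *txnipb* as symbols of other roles. Of its 47 tested genes, 6 were higher at that threshold (12.8%, beside 4.22% of all genes) and 0 lower (beside 6.35%). The median was 0.33, and 4 were higher without overlap on CPM (8.51%, beside 6.95% of all genes). Over all genes the 12 calls at an adjusted p below 0.05 became 242 with DESeq2, 39 without a filter, 4 when a mean of 1 FPKM or more was asked for, 5 with limma on log2(FPKM + 1), 241 with a term for the split by *mt-co1* reads, 4 with library totals, 23 at an adjusted p below 0.1, and 3 to 30 with a library left out. In the second list, the 0 genes higher became 1 with DESeq2 size factors, 4 with DESeq2 and 2 without a filter (beside 4.95%, 5.41% and 3.37% of all genes). They became 2 and 3 with limma on log2(FPKM + 1) and log2(FPKM + 0.1) (beside 2.17% and 2.19%). With the split term there were 6 (beside 8.40%), with library totals 1 (beside 1.83%), and with a library left out 0 to 11 (beside 1.88% to 10.6%). The 3 lower became 0 to 13 with a library left out (beside 3.04% to 16.6%). The cause was not tested.

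Whether the replicate numbers pair the libraries could not be settled. For each tested gene, the deviation of every library from the mean log2 CPM of its group was taken. These deviations were correlated between WT and mutant libraries over all tested genes. They cancel within a group, so values of both signs were bound to occur. Same-numbered libraries gave 0.587, -0.336 and 0.383, and WT replicate 2 correlated best with mutant replicate 1 (0.420). The sign of each correlation between a WT and a mutant library followed the split by *mt-co1* reads. The correlations therefore cannot show whether same-numbered pools were handled together. With the replicate number as a block there were 132 calls over all genes and 0 among the redox genes (lowest adjusted p 0.0507, *gpx4a*, by edgeR). At an unadjusted p below 0.05, 10 redox genes were higher and 1 was lower. The second list had 6 higher and 6 lower, and over all genes the shares were 7.20% and 11.0%.

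Signs of small fold changes turned. *prdx3* was -0.0262 under the filter on mean FPKM, -0.27 with limma on both FPKM scales, -0.26 with the split term and with library totals, and -0.17 to 0.38 with a library left out. *prdx5* was -0.19 with limma on both scales and with library totals, -0.17 with the split term, and -0.11 to 0.46 with a library left out. *gsr* was -0.0242 under that filter, -0.22 and -0.28 with limma on log2(FPKM + 1) and log2(FPKM + 0.1), -0.0523 with the split term, -0.29 with library totals, and -0.15 to 0.17 with a library left out. *nqo1* was -0.15 and -0.23 with limma, -0.20 with library totals, and -0.17 to 0.37 with a library left out. *gclc* was -0.19 and -0.22 with limma, -0.22 with library totals, and -0.0246 to 0.22 with a library left out. *txnipa* was -0.0821 and -0.0824 with limma and -0.0729 with library totals. *prdx6* was -0.0013 and -0.0015 with limma. With a library left out, *prdx1* spanned -0.30 to 0.34, *txn* -0.30 to 0.26 and *nfe2l2b* -0.26 to 0.92. The 7 untested genes had a count of at most 20 in any library, and no difference between the genotypes was assessed for them.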
